A study of Mus musculus with 32 samples.

Results

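The 8 mRNAs Aup1, Slc2a6, Pex26, Lars2, Rsu1, Dusp6, Aoc2 and Pitpnc1 were named by the study as candidates for nuclear export that depends on the SR protein SRSF3. The study called candidates from changes by transcript, with the cytoplasmic level set against that of whole cells. It also measured SRSF3 candidates by RT-qPCR of cell fractions after SRSF3 knockdown or overexpression. The values below are mostly sums by gene from the RNA sequencing, so they repeat neither measure. The 8 members were picked by name, 8 of the 38201 genes in the gene tables, and all 8 passed the filter on low values in both fractions. Because the SRSF3 knockdown itself chose them, their values after SRSF3 knockdown are given below as a description without a test, and tests are given only for the 6 knockdowns that did not choose them. Those 6 comparisons share their GFP control libraries with the SRSF3 comparison.

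The cells were P19, a mouse embryonal carcinoma line. Every group was transfected for 36 h by Lipofectamine with an esiRNA, a pool of short interfering RNAs cut from a long double-stranded RNA. The esiRNA targeted Srsf1, Srsf2, Srsf3, Srsf4, Srsf5, Srsf6 or Srsf7 in the 7 knockdown groups and GFP, a gene these cells lack, in the control group. Poly(A)+ RNA was sequenced from a cytoplasmic fraction and from whole cells, with 2 libraries (A and B) in each of the 8 groups and each fraction, 32 libraries in all. The study's methods speak of 2 biological replicates of each sample, and A and B are taken to be these. The series' design text adds 2 technical replicates, and neither says whether A and B were separate transfections, so p-values measure the spread between these libraries. A transfection pool is not a null: some of each target mRNA was left in every knockdown.

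SR proteins are RNA-binding proteins with an RNA recognition motif and a tail rich in serine and arginine. They bind pre-mRNA during transcription, help to choose splice sites and polyadenylation sites, and some of them shuttle to the cytoplasm with the mRNA. mRNA leaves the nucleus bound to the export receptor NXF1, which is recruited to the mRNA by adaptor proteins, and SRSF3 is among the adaptors that contact NXF1. Whether an mRNA is short in the cytoplasm relative to its level in the whole cell when an SR protein is depleted is the question for which the 2 fractions were compared.

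The members have little in common by function. Aup1 encodes a protein of the endoplasmic reticulum and lipid droplets that recruits the ubiquitin-conjugating enzyme UBE2G2. Pex26 encodes a peroxisomal membrane protein that anchors the ATPase PEX6. Slc2a6 encodes a facilitative sugar transporter (GLUT6) and Pitpnc1 a phosphatidylinositol transfer protein. Lars2 encodes the mitochondrial leucyl-tRNA synthetase and Aoc2 a copper amine oxidase. Rsu1 encodes a Ras suppressor that sits in the ILK, PINCH and parvin adhesion complex, and Dusp6 encodes a phosphatase that switches off the MAP kinases ERK1 and ERK2.

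In the mm10 coordinates of the exon tables, Aup1 (ENSMUSG00000068328) lies at chr6:83054495-83057682 and Pex26 (ENSMUSG00000067825) on the same chromosome at chr6:121183217-121198837. Slc2a6 (ENSMUSG00000036067) lies at chr2:27021363-27028000 and Rsu1 (ENSMUSG00000026727) at chr2:13076967-13271438. Aoc2 (ENSMUSG00000078651) lies at chr11:101323640-101329807 and Pitpnc1 (ENSMUSG00000040430) at chr11:107207892-107470720. Lars2 (ENSMUSG00000035202) lies at chr9:123366927-123462675 and Dusp6 (ENSMUSG00000019960) at chr10:99263231-99267489. Annotated genes overlap 4 of them, among these Htra2 at Aup1 and Gm34921 at Dusp6, and reads of such partners cannot be told apart where they overlap, because none of the sources used here states the strand of counting.

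The 3′ UTRs of the members hold the letters that SRSF3 is known to bind, a C, any base, then UC in RNA (CNTC in DNA letters, sense strand only, matches may share bases). The density was 2.04 matches per 100 bases in Rsu1, 1.79 in Pex26, 1.63 in Slc2a6 and 0.685 in Aup1, against a median of 1.51 over 18374 mouse 3′ UTRs of at least 100 bases. Of those UTRs, 22.6% were as dense as that of Rsu1 and 92.3% as that of Aup1. For a view of the site itself, the 30-base window with the most matches is printed for these 4 members, with the matches in capitals. A window with 4 matches, as in Rsu1 and Pex26, is found in 26.9% of all the UTRs, and one with 2, as in Slc2a6, in 88.2%. A longer UTR has more windows. Among UTRs of like length the share with 4 matches was 15.9% for Rsu1 (538 bases) and 42.9% for Pex26 (2570 bases). The members' UTRs are those of their main transcripts in the NCBIM37 (mm9) annotation, while the 18374 UTRs are the longest of each gene. Bases are counted from the first base of the 3′ UTR.
Rsu1, bases 17 to 46: ctggtttctggCCTCCTTCCTCcggcCTTC
Pex26, bases 458 to 487: CCTCCTCcataccCTTCccccacgccCCTC
Slc2a6, bases 86 to 115: gcacccctgcCATCagccagagcacaCTTC
Aup1, bases 28 to 57: gccgcaggacggagactgggggcagcCCTC

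The motif density of the other members lay between 1.26 matches per 100 bases (Aoc2) and 1.72 (Lars2). A match says only that these letters are present in the annotated UTR. Binding was not measured in these files.

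In units of 1e+06, the libraries held 27.7 to 48.6 estimated reads in the cytoplasm and 26.9 to 40.9 in whole cells. The target mRNA left in its own knockdown was 37.8% to 77.0% of the GFP mean over the 7 targets and both fractions. Srsf3 was left at 66.6% in the cytoplasm (5720 and 3215 scaled reads in A and B, against 7172 and 6254 in GFP) and at 68.7% in whole cells. The A and B libraries differed as sets: Malat1, a nuclear RNA, was 2.25 to 7.27 times higher in A than in B in the cytoplasm of all 8 groups, and in whole cells its A to B ratio was 0.742 to 1.18. The summed level of 5 markers of differentiated epithelial or contractile cells was 4786 to 9572 in cytoplasmic A and 20511 to 32833 in cytoplasmic B, while the 6 pluripotency markers were detected in every group (summed level 57545 to 198736). The 5 pancreas markers, which mark a cell type foreign to this line, reached a summed 481 in a cytoplasmic A library and no more than 14.9 in cytoplasmic B. The 5 fibroblast markers summed to 428 to 1121 over all libraries. The part of these letter differences in the results below was not tested beyond the fits with the letter as a block. In bulk RNA, fewer cells of a kind and less RNA per cell cannot be told apart.

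By gene values after SRSF3 knockdown, the median of the 8 mRNAs lay further below the control in the cytoplasm than in whole cells. The medians by transcript, given further below, had the reverse order. The scaled reads used here are the deposited gene values, read counts brought to a common depth. The median log2 change of the 8 members (knockdown minus GFP, on log2 of the scaled reads plus 1) was -0.54 in the cytoplasm, against -0.02 over all genes tested, and -0.27 in whole cells, against -0.00 (rounded) over all genes. Both SRSF3 libraries lay below both GFP libraries in the cytoplasm for 7 of 8 members, and this was so for 20% of all 17561 genes tested. Both lay above both GFP libraries for 0 of 8 members and for 20.8% of genes. In whole cells 4 of 8 members lay below both GFP libraries (26.9% of 18552 genes) and 2 of 8, Lars2 and Aoc2, lay above both (28.6% of genes). The whole-cell median rested on single libraries: it was -0.12 without SRSF3 replicate A, -0.47 without SRSF3 replicate B and -0.47 without GFP replicate A. The choice of the members used this contrast, so nothing is read from these counts.

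Markers of the fractions and of the cells were compared in the same libraries. The summed level of the 8 nuclear RNAs in the tables was 7063 and 4035 scaled reads (A and B) in the SRSF3 cytoplasm against 4454 and 4149 in GFP, so it was above the control in A and slightly below it in B. Of the 8, 7 lay above the GFP library of the same letter in A and 4 in B. In whole cells their sum was 34905 and 38609.9 against 42709 and 39958. The 5 epithelial or contractile markers summed to 4786 and 23244 against 8196 and 26892 in the cytoplasm and to 3004 and 11498 against 4672 and 14942 in whole cells, below the control of the same letter each time. With limma 0 of these 5 passed in either fraction. With the letter as a block 2 passed in the cytoplasm (14% of all genes did) and 4 in whole cells (33.2%), all lower. The 6 pluripotency markers summed to 113416 and 122693 against 147207 and 148082 in the cytoplasm. They gave 0 calls there, or 1 lower with the block (14% of all genes passed). The part of these shifts in the members' values was not tested.

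**Figure D1:**
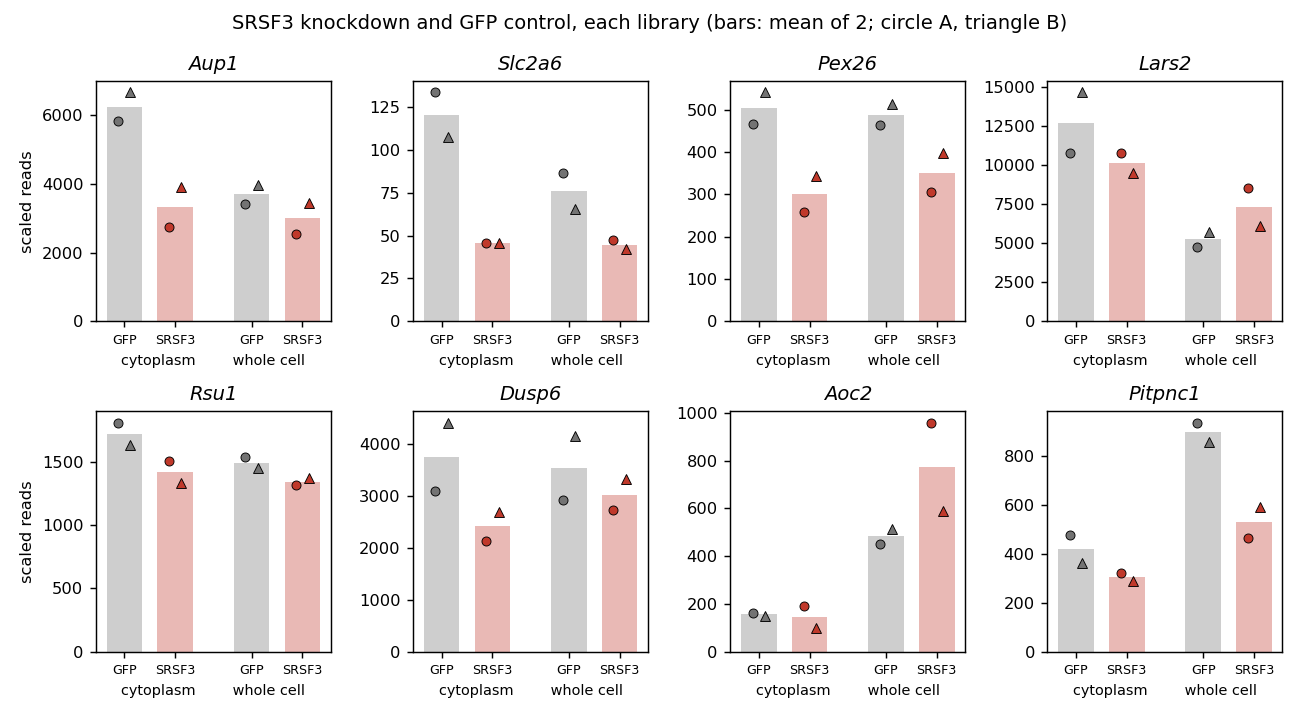
Scaled reads of the 8 candidates (y axis) in GFP control (grey) and SRSF3 knockdown (red) libraries of the cytoplasm and of whole cells; bars are means of 2 libraries, circles are A and triangles are B. Slc2a6 shows the widest gap, 45.6 in both cytoplasmic SRSF3 libraries against 133 and 107 in GFP, and Aoc2 stands out with whole-cell values of 959 and 589 against 451 and 515.

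Among the genes of membranes and organelles, Slc2a6 had the largest cytoplasmic gap. It was at 45.6 and 45.6 scaled reads (A and B) in the cytoplasm after SRSF3 knockdown and at 133 and 107 in GFP, a log2 change of -1.38 ± 0.28 (SE, n = 2 against 2). In whole cells it was at 47.1 and 42.1 against 86.3 and 65.3, a log2 change of -0.75 ± 0.38. The groups did not overlap in either fraction. These values rest on few reads: 59 and 78 reads in the exon bins of the SRSF3 cytoplasm and 163 and 157 in GFP.

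Aup1 was at 2758 and 3907 scaled reads in the cytoplasm and at 5830.3 and 6670.3 in GFP, a log2 change of -0.93 ± 0.28. Its whole-cell values of 2554 and 3455 overlapped those of GFP, 3429 and 3981. Its whole-cell log2 change was -0.33 ± 0.17, so the groups stood apart in the cytoplasmic libraries and not in the whole-cell ones. Within a letter the whole-cell value was lower too (-0.43 in A and -0.20 in B).

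Pex26 was at 259 and 342 in the cytoplasm against 466 and 541, a log2 change of -0.76 ± 0.29. Its whole-cell values were 305 and 398 against 464 and 513, with a log2 change of -0.50 ± 0.21. Both fractions lay below the control for Pex26, and the whole-cell gap made up most of the cytoplasmic one.

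Pitpnc1 was further below the control in whole cells than in the cytoplasm. Its cytoplasmic values of 324 and 289.7 lay below 477 and 363, a log2 change of -0.45 ± 0.27, but its whole-cell values of 467 and 592 lay further below 938 and 859, a log2 change of -0.78 ± 0.16. Relative to the whole cell, the cytoplasmic share of Pitpnc1 was therefore higher after SRSF3 knockdown, and of the 8 members this was so in both letters for Pitpnc1 alone (0.45 in A and 0.21 in B on the log2 scale).

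Of the signalling genes, Dusp6 was at 2131 and 2693 scaled reads in the cytoplasm against 3097 and 4408, a log2 change of -0.63 ± 0.26. In whole cells its 2729.6 and 3319.6 overlapped the 2925 and 4143 of GFP, a log2 change of -0.22 ± 0.22. Within a letter Dusp6 was lower in whole cells too (-0.10 in A and -0.32 in B). Rsu1 showed the smallest gaps of the members that did not overlap in the cytoplasm. Rsu1 was at 1511 and 1335 against 1811 and 1631 in the cytoplasm, a log2 change of -0.28 ± 0.24. In whole cells it was at 1320.03 and 1371 against 1537 and 1451, a log2 change of -0.16 ± 0.09.

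The enzymes Lars2 and Aoc2 were higher in whole cells than in the control. Lars2 was at 8518 and 6082 scaled reads in whole cells against 4764 and 5732, a log2 change of 0.45 ± 0.57, and at 10768 and 9482 in the cytoplasm against 10779.7 and 14665, a log2 change of -0.32 ± 1.02. The cytoplasmic A library and its control were nearly equal. Aoc2 was at 959 and 589 in whole cells against 451 and 515, a log2 change of 0.63 ± 0.21, and at 191 and 98.9 in the cytoplasm against 163 and 149, a log2 change of -0.19 ± 0.31. The Aoc2 whole-cell value depended on the library: it was 0.28 without SRSF3 replicate A and 0.96 without SRSF3 replicate B.

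The export question turns on a relative change, that of the cytoplasm less that of whole cells, taken within a letter. After SRSF3 knockdown it was below 0 in both letters for 7 of 8 members and above 0 in both for Pitpnc1. A and B differed by 0.05 to 0.24 on the log2 scale. In the other knockdowns 1 to 5 of 8 members were below 0 in both letters, the most after SRSF1 knockdown. The SRSF3 contrast chose the members, and the share of all genes was not counted for any knockdown. Nothing is therefore read from the 7 of 8, from the 1 to 5 of 8 or from the gap between them. In the joint fit the median relative change over the 8 members was -0.50. It was -0.81 ± 0.38 for Aoc2, -0.77 ± 1.26 for Lars2, -0.62 ± 0.49 for Slc2a6 and -0.60 ± 0.34 for Aup1. A value of -0.5 or less, as in these 4, was found for 8.51% of the 19230 genes in the joint fit. Dusp6 (-0.41), Pex26 (-0.26) and Rsu1 (-0.12) followed, and Pitpnc1 was at 0.34. For Pex26, Rsu1 and, by a small margin, Slc2a6 (-0.75 in whole cells and -1.38 in the cytoplasm) most of the cytoplasmic gap was thus present in whole cells too. For Aoc2 and Lars2 the negative value came from a whole-cell level above the control more than from a cytoplasmic level below it.

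**Figure D2:**
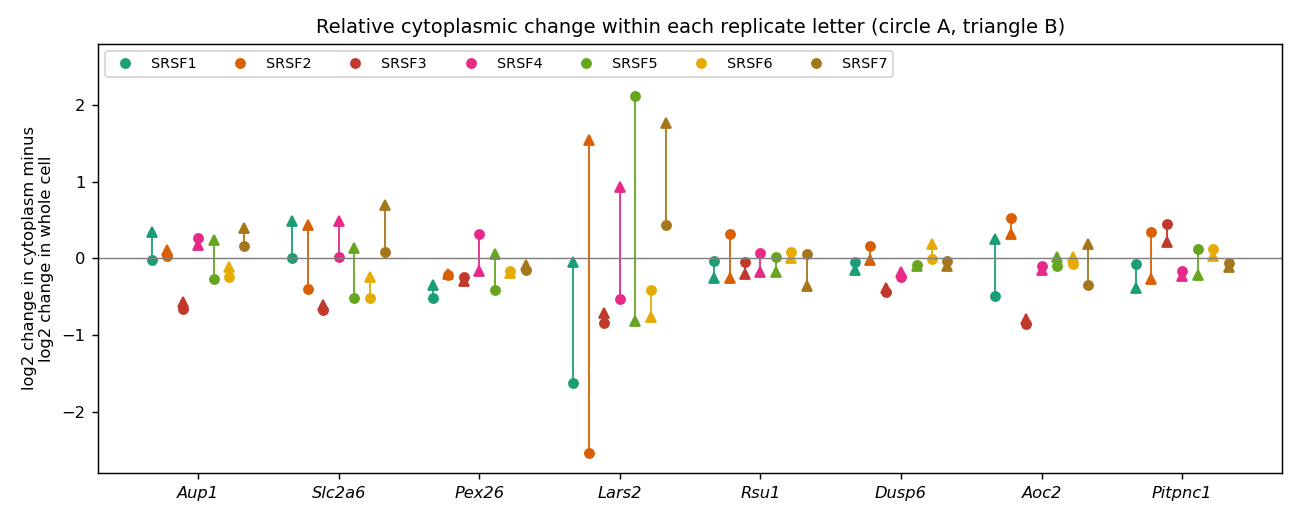
Log2 change in the cytoplasm minus log2 change in whole cells (y axis) for each candidate in 7 knockdowns (colours), computed within replicate letter A (circles) and B (triangles), joined by a line. After SRSF3 knockdown, the contrast that chose the candidates, A and B lie close together, 0.24 apart at most, and below 0 except for Pitpnc1. Lars2 spreads from -2.54 to 2.13 over the other knockdowns.

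In the 6 other knockdowns, which did not choose the members, none of the 8 mRNAs passed the test. With limma, 0 of 48 member and knockdown pairs passed an adjusted p of 0.05 in the cytoplasm, 0 of 48 in whole cells and 0 of 48 for the relative change. Over all genes and the same 6 knockdowns, 0.00854%, 0.152% and 0.0113% of the tests passed. With so few passes, 0 of 48 does not show that the members were unchanged. Even Srsf4, left at 37.8% in the cytoplasm of its own knockdown, passed there with the letter as a block but not without it. At an unadjusted p under 0.05 there were 2 of 48 member pairs in the cytoplasm, 3 in whole cells and 0 for the relative change. edgeR on the reads of the exon bins called 0 in each, and DESeq2 called 1, Rsu1 in whole cells after SRSF7 knockdown. With the letter as a block, the cytoplasm had 1 call of 48, Pex26 after SRSF1 knockdown (of all gene tests 1.32% passed with the block, and of those after SRSF1 knockdown 5.87%), and whole cells and the relative change had 0 (3.03% and 0.0165% of all gene tests).

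**Figure D3:**
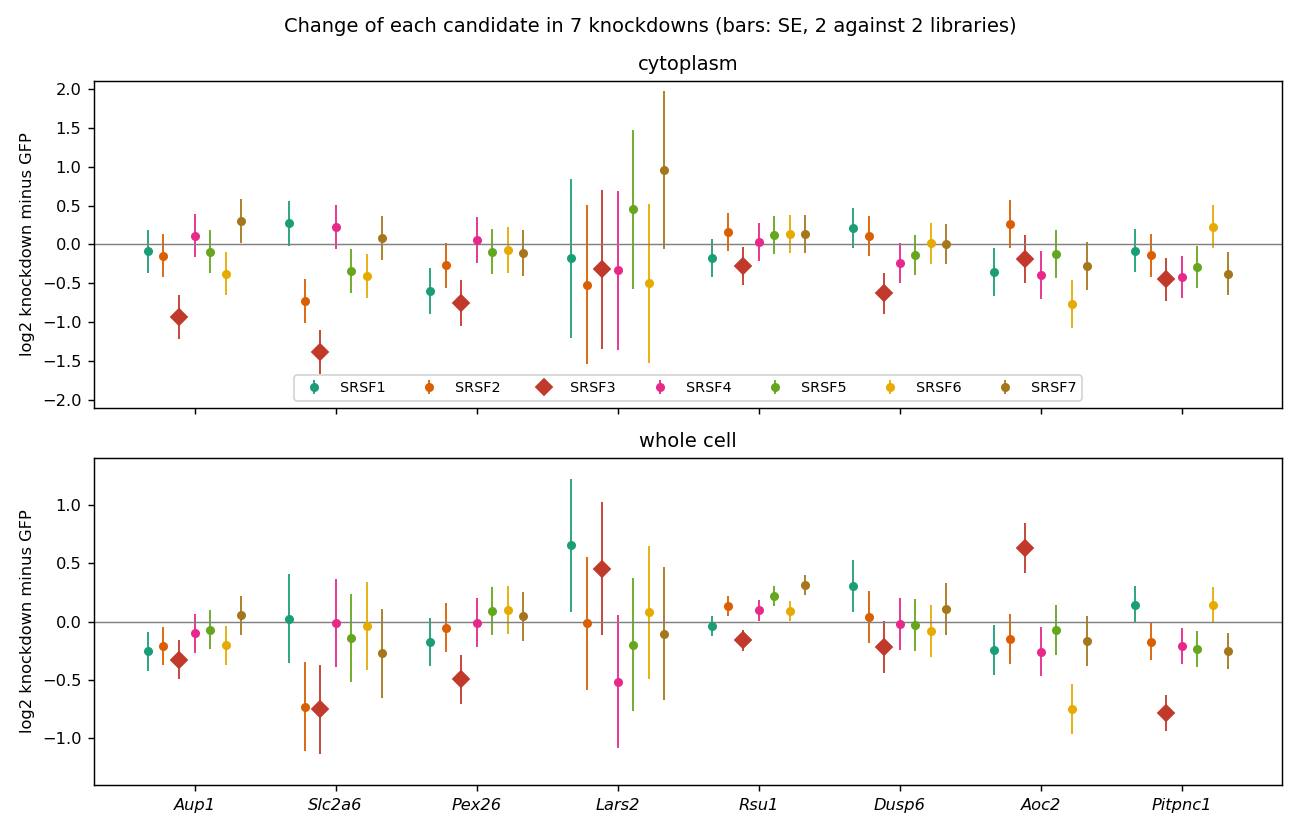
Log2 change (y axis) of each candidate (x axis) against GFP in the cytoplasm (top) and in whole cells (bottom) after knockdown of SRSF1 to SRSF7 (colours; SRSF3 as a red diamond), with SE bars from the fit over all libraries of the fraction. The SRSF3 diamonds reach -1.38 for Slc2a6 in the cytoplasm and 0.63 for Aoc2 in whole cells, and the bars of Lars2 are the longest (SE 1.02 and 0.57).

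Pex26, the peroxisomal anchor, was at 272 and 403 scaled reads in the cytoplasm after SRSF1 knockdown against 466 and 541 in GFP, so the groups did not overlap. Its log2 change was -0.60 ± 0.29, with an adjusted p of 0.56 in the limma fit and 0.041 with the letter as a block. Its whole-cell values of 385 and 485 overlapped the 464 and 513 of GFP (log2 change -0.17 ± 0.21, adjusted p = 0.79 by limma). The relative change of Pex26 after SRSF1 knockdown was -0.42 ± 0.37 (adjusted p = 1 by limma).

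Slc2a6 was low after SRSF2 knockdown in both fractions. It was at 55.5 and 94.2 scaled reads in the cytoplasm against 133 and 107, a log2 change of -0.72 ± 0.28 (adjusted p = 0.66 by limma). Its whole-cell values were 47.2 and 42.4 against 86.3 and 65.3, a log2 change of -0.73 ± 0.38 (adjusted p = 0.54 by limma). Neither passed the test, and the groups did not overlap in either fraction. The relative change was 0.00 ± 0.49. The whole-cell values after SRSF2 knockdown were close to those after SRSF3 knockdown, 47.1 and 42.1, and both comparisons use the same control libraries.

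Aoc2 was at 83.6 and 98.3 scaled reads in the cytoplasm after SRSF6 knockdown against 163 and 149, a log2 change of -0.77 ± 0.31. Its whole-cell values were 244 and 335 against 451 and 515, a log2 change of -0.75 ± 0.21. Their unadjusted p were 0.030 and 0.0043 in the limma fits, and the adjusted p were 0.98 and 1. Aoc2 lay below both GFP libraries in 4 of the 6 knockdowns in each fraction, so its SRSF6 values were the lowest of a set that lay mostly under the control.

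Rsu1, whose gaps after SRSF3 knockdown were small, lay above both GFP libraries in whole cells in 5 of the 6 other knockdowns. It reached 1817 and 1892 scaled reads after SRSF7 knockdown against 1537 and 1451, a log2 change of 0.32 ± 0.09 (unadjusted p = 0.0033, adjusted p = 0.40 by limma, and 0.047 by DESeq2 on the exon-bin reads). In the cytoplasm Rsu1 overlapped the control in all 6. The 5 comparisons share the same 2 GFP libraries.

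Aup1 ran to both sides of the control in the cytoplasm: it was at 6776 and 9101 after SRSF7 knockdown and at 4217 and 5414 after SRSF6 knockdown, against 5830.3 and 6670.3. Neither passed the test (log2 change 0.30 and -0.37, SE 0.28 each, adjusted p = 1 and 0.98 by limma). Dusp6 overlapped its control in all 6 knockdowns and both fractions, with log2 changes from -0.24 to 0.30. Its GFP libraries lay wide apart (2925 in A and 4143 in B in whole cells), so an overlap says little for this gene. The 0.30 was in whole cells after SRSF1 knockdown, where A and B each lay above the GFP library of their letter (0.49 and 0.11). Its adjusted p was 0.60 by limma and 0.064 by limma with the block. Pitpnc1 lay below the control in the cytoplasm in 2 of the 6, and in whole cells below it in 3 and above it in 2, with log2 changes from -0.42 to 0.23.

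Counted over all members and the 6 knockdowns, both libraries lay below both GFP libraries in 11 of 48 pairs in the cytoplasm (17.3% of all gene and knockdown pairs did) and above them in 2 of 48 (17.5%). In whole cells it was 10 of 48 below (17.4%) and 7 of 48 above (16.2%). The pairs share control libraries and genes, so these counts are not 48 separate observations.

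Across the libraries of a fraction, Lars2 ranged more widely than almost any gene with a mean of 1000 scaled reads or more. Its cytoplasmic values ran from 2700 (SRSF2 knockdown, A) to 53168 (SRSF7 knockdown, B), a 19.7-fold range, and its whole-cell values from 2612 to 16960, a 6.49-fold range. The median range of the genes with a mean of at least 1000 scaled reads was 1.82-fold over 5485 genes in the cytoplasm and 1.54-fold over 6255 genes in whole cells. A range as wide as that of Lars2 was found for 6 and 8 of them. The 2 SRSF2 libraries of the cytoplasm were at 2700 and 28697, and the 2 SRSF5 libraries at 39734 and 7528. All log2 changes of Lars2 of 0.5 or more in size are therefore of the order of their SE: -0.52 (SRSF2), -0.50 (SRSF6) and 0.96 (SRSF7) in the cytoplasm with an SE of 1.02, 0.65 (SRSF1) and -0.51 (SRSF4) in whole cells with an SE of 0.57, and -0.83 (SRSF1), -0.51 (SRSF2), 0.65 (SRSF5), -0.59 (SRSF6) and 1.07 (SRSF7) for the relative change with an SE of 1.26.

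The spread of Lars2 sat in its last exon. This exon, of 1166 bases, held 61.5% to 97.7% of the reads in the exon bins of Lars2 in the cytoplasm and 55.7% to 90.0% in whole cells. Across libraries the last exon ranged 25.6-fold in the cytoplasm and 8.49-fold in whole cells, and the other exons together 1.60-fold and 1.34-fold. Counted over the other exons alone and per 1e+06 bin reads, Lars2 was at 18.97 and 23.5 in the SRSF3 cytoplasm against 21.5 and 24.0 in GFP, a log2 change of -0.10. In whole cells it was at 28.4 and 30.9 against 31.7 and 29.7, a log2 change of -0.05.

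**Figure D4:**
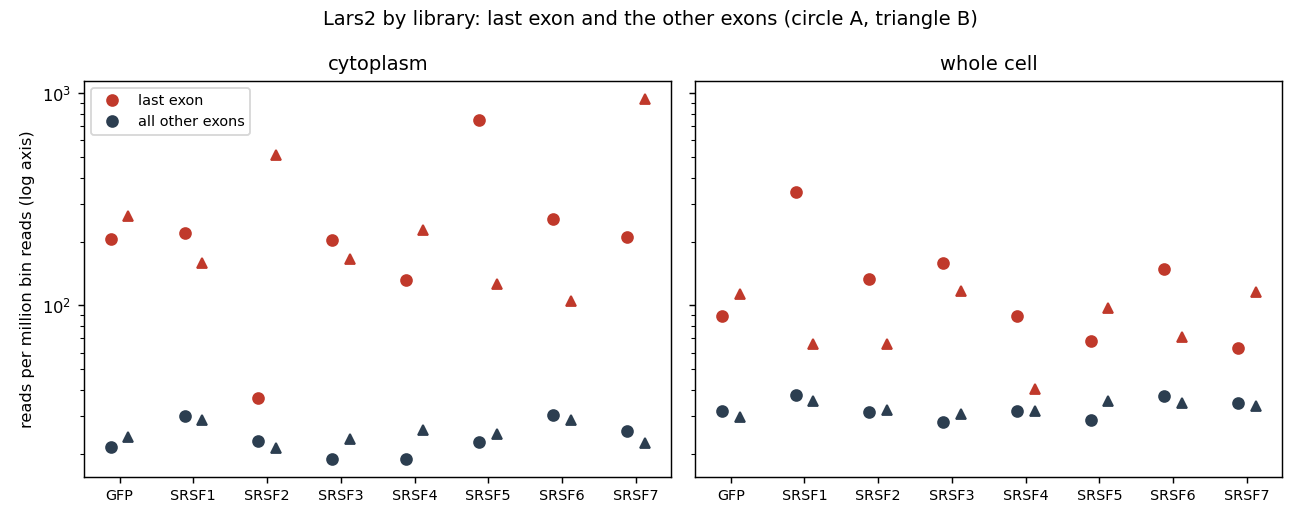
Reads per 1e+06 bin reads (y axis, log scale) in the last exon (red) and in all other exons (dark blue) of Lars2 in each library of 8 groups, cytoplasm at left and whole cell at right; circles are A and triangles are B. The other exons stay between 18.9 and 37.9 in every library, and the last exon runs from 36.7 to 938 in the cytoplasm.

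Parts of this exon occur elsewhere in the genome. A blastn search of the main transcript (ENSMUST00000038863) against the mm9 genome found 11 other places on 9 chromosomes with at least 95% identity over at least 50 bases, and together they covered 398 bases, from base 3009 to base 3406 of the transcript, all in the 3′ UTR. The run below, from the 5′ part of that stretch, was found without a mismatch in 4 of them. It is printed because reads that fall on it alone cannot be given to a single place, and none of the sources used here says how the study's counting treated such reads. The run lies on the plus strand of mm9 at chr9:123370930-123370959, in the last exon of Lars2, bases 314 to 343 of that exon.
Lars2, bases 3029 to 3058 of the transcript: tcagggaggacagaaacctcccgtggagca

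No other member besides Aoc2 had such a copy. Lars2 was followed most closely over the 16 group means (8 groups in 2 fractions, log2, centred within a fraction) by Gm15662 (r = 0.95) and Gm12913 (r = 0.95). With limma's diffSplice, 0 of 1051 tests of member exon bins in the 6 other knockdowns passed an adjusted p of 0.1 (background 0.066%), with a lowest adjusted p of 0.14. With the letter as a block 3 passed (background 0.182%), all of them the last exon of Lars2 in the cytoplasm. The log2 change that diffSplice gives is that of an exon against the other exons of its gene, not of its share. It was -0.69 after SRSF1 knockdown (diffSplice adjusted p = 0.0021), -0.88 after SRSF6 knockdown (0.061) and 0.94 after SRSF7 knockdown (0.044). The exon's share of the Lars2 bin reads was 87.9% and 84.7% after SRSF1 knockdown against 90.6% and 91.6% in GFP. After SRSF7 knockdown it was 89.1% and 97.7%.

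Aoc2 has 2 kinds of copies. Of its 78 matches on 20 chromosomes, those in the coding part covered 362 bases and those in the 3′ UTR 169 bases. Which genes these matches fall in was not looked up. The paralog Aoc3 lies 798 bases from Aoc2, and Psme3 lies 102 bases away on the other side. In whole cells Aoc3 was at 128 and 86.1 scaled reads after SRSF3 knockdown against 49.3 and 54.0, above the control as Aoc2 was. Psme3, far more abundant, was at 13078 and 11253 against 10070 and 11064. How far the Aoc2 value holds reads of Aoc3 was not tested.

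Transcript estimates give a second view of the members, from FPKM values (fragments per kilobase of transcript, scaled to sequencing depth) that the study pooled over the libraries of a condition, so they carry no error. Over the 15 transcripts that held at least 10% of a member's FPKM in a control column, the median log2 change after SRSF3 knockdown was -0.33 in the cytoplasm and -0.47 in whole cells. This order is the reverse of that of the gene medians, and it depended on the pseudocount and on the FPKM of the transcripts kept. Aup1, Dusp6 and Lars2 had a single transcript each, and their FPKM followed the gene values: Aup1 was at 72.9 in the cytoplasm against 136.7 and at 72.3 in whole cells against 89.1. For Slc2a6 the main transcript ENSMUST00000045702 was at 0.544 against 1.73 in the cytoplasm and at 0.349 against 0.867 in whole cells.

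The transcript estimates of Rsu1 after SRSF3 knockdown differed from the control in opposite directions in the 2 fractions. In the cytoplasm ENSMUST00000028059 was at 9.59 FPKM against 23.0 and ENSMUST00000114791 at 17.8 against 9.86. In whole cells ENSMUST00000028059 was at 21.3 against 17.9 and ENSMUST00000114791 at 5.52 against 14.2. ENSMUST00000114791 lacks a coding exon of 51 bases (exon 3 of the longer form, mm9 chr2:13163372-13163422, minus strand). The junctions that tell them apart are printed here, with the first bases of the downstream exon in capitals.
Rsu1 with the exon: atgtcaacggcttgtTCTCTCTAGCCCACA
Rsu1 without the exon: atgtcaacggcttgtCTGTGCCACCAAATG

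The share of reads in that exon stood closer to the control than the estimates did. In the cytoplasm the exon held 4.64% and 5.69% of the Rsu1 bin reads after SRSF3 knockdown against 6.56% and 6.49% in GFP (103 and 165 reads against 176 and 183). In whole cells it held 6.78% and 6.91% against 6.05% and 6.38%. The cytoplasmic share lay below its control and the whole-cell share above it, as for the longer transcript, but it was 5.60% and 5.06% after SRSF2 knockdown too, where the pooled estimate of that transcript was 25.2. Over the 6 other knockdowns the estimate of ENSMUST00000028059 ran from 15.2 to 27.9 in the cytoplasm and that of ENSMUST00000114791 from 6.89 to 17.4.

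**Figure D5:**
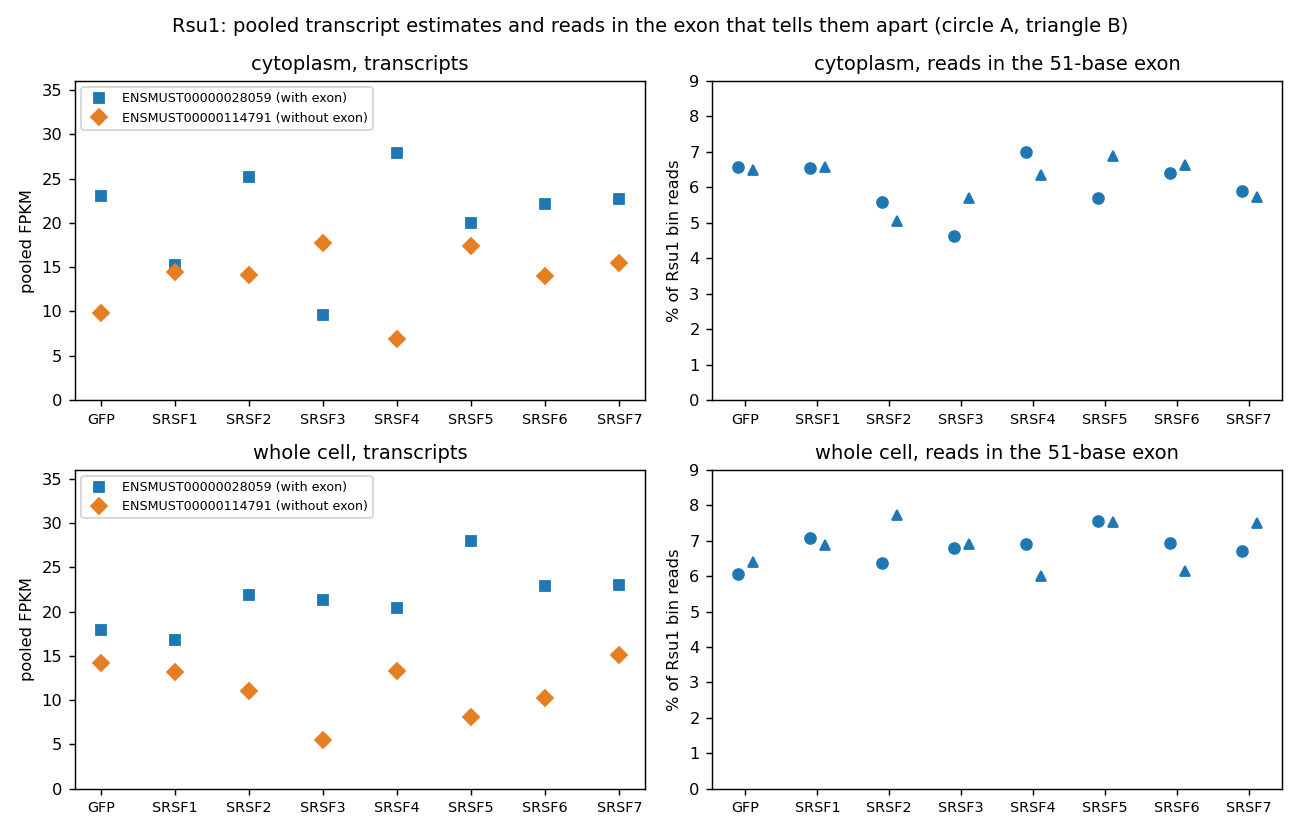
Left, pooled FPKM of the Rsu1 transcripts with (blue squares) and without (orange diamonds) the 51-base exon in the control and 7 knockdowns; right, the percentage of Rsu1 bin reads in that exon in each library (circles A, triangles B); cytoplasm above, whole cell below. The transcript estimates cross after SRSF3 knockdown in the cytoplasm (9.59 and 17.8), while the exon's share is 4.64% and 5.69% against 6.56% and 6.49% in the control.

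Of the Pitpnc1 transcripts, ENSMUST00000040380 stood furthest below its control after SRSF3 knockdown. It was at 0.115 FPKM against 0.712 in the cytoplasm and at 0.666 against 1.94 in whole cells. The main transcript ENSMUST00000103064, which has an additional exon of 119 bases before its last exon (mm9 chr11:107077992-107078110, minus strand), was at 1.26 against 1.28 and at 2.02 against 2.77. The exon held 3.40% and 4.08% of the Pitpnc1 bin reads in the SRSF3 cytoplasm against 4.44% and 0.948% in GFP, with 12, 19, 22 and 4 reads, so the pooled difference was not visible in reads of this exon at this depth. The junctions differ by few letters, shown with the downstream exon in capitals.
Pitpnc1 with the exon: ttgatgagtggtacgATATGACAATGGATG
Pitpnc1 without the exon: ttgatgagtggtacgACATGACAATGGATG

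Pex26 had 2 transcripts of note. ENSMUST00000120066, with a 308-base exon that ENSMUST00000118234 lacks, was at 1.45 FPKM against 2.52 in the SRSF3 cytoplasm and at 1.66 against 3.01 in whole cells. ENSMUST00000118234 was at 0.745 against 1.42 in the cytoplasm, and in whole cells at 1.11 against 0.701. The whole-cell control was low for this transcript in all comparisons, since the 6 other knockdowns had 1.43 to 1.64.

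Over member bins whose mean reached 5 or more, the largest share change after SRSF3 knockdown was in Rsu1 in whole cells, where a bin (chr2:13267461-13270910, mm10) held 0.711% and 0.358% of the reads against 0.0864% and 0. The Rsu1 reads in all bins were 1829 and 2517 there, against 2315 and 2522 in GFP. In Slc2a6 the bin at chr2:27025223-27025322 held 13.6% and 10.3% of the cytoplasmic reads against 4.91% and 4.46%. These are shares of a low total that fell, 59 and 78 Slc2a6 reads against 163 and 157, so the higher share does not mean more reads in the bin. Each bin named here was picked for the largest share change of its gene in that fraction, so few reads can make such a value. In Pex26 the bin at chr6:121185851-121187081 held 6.27% and 5.45% of the whole-cell reads against 2.30% and 3.21%. The last exon of Pex26 held a large part of its reads (75.5% to 87.0% in the cytoplasm), and over its other exons alone the cytoplasmic log2 change after SRSF3 knockdown was -0.22, in place of -0.76 for the gene. For Aup1 (-0.92), Slc2a6 (-1.39) and Dusp6 (-0.60) the cytoplasmic change without the last exon stayed near the gene's value. Pitpnc1 did not: over its other exons it was at 3.12 and 2.69 reads per 1e+06 bin reads in the SRSF3 cytoplasm against 3.86 and 2.18 in GFP, a log2 change of -0.01 in place of -0.45. In whole cells the changes without the last exon were -0.41 for Pex26 and -0.68 for Pitpnc1, so the cytoplasmic gap of Pex26 was then the smaller of the 2 and its relative change turned sign.

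The members differ widely in level. Per length, in pooled control FPKM of the cytoplasm, Aup1 was the most abundant (136.7), followed by Lars2 (98.9), Rsu1 (48.0), Dusp6 (41.4), Pex26 (3.99), Pitpnc1 (2.90), Aoc2 (1.91) and Slc2a6 (1.77). These pooled values carry no replicate error, so whether neighbours such as Rsu1 and Dusp6 or Aoc2 and Slc2a6 differ beyond their spread was not tested. Ranked by the control ratio of cytoplasm over whole cell among 17035 genes, Lars2 was at percentile 93.8, Aup1 at 77.8 and Slc2a6 at 74.7. Rsu1 (58.9), Dusp6 (55.1) and Pex26 (53.7) were near the middle, and Pitpnc1 (25.7) and Aoc2 (17.3) were among the mRNAs with the least cytoplasmic signal. The rank of Lars2 rests on its last exon.

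The partners of the members, in lists by pathway or family that leave out the member itself, were tested in the same fits. After SRSF3 knockdown 0 of 96 passed in the cytoplasm with limma (0.558% of all genes did), and 12 passed with the letter as a block (14% of all genes). In whole cells 11 of 95 passed, 6 higher and 5 lower (11.5% of all genes passed), and 28 with the block (33.2% of all genes). The partners thus passed in whole cells about as often as all genes did. The single calls after SRSF3 knockdown named below are a listing, and nothing is read from them about a pathway. For the relative change 0 of 97 passed (0.0104% of all genes). The 11 calls in whole cells became 0 without SRSF3 replicate A, 18 without SRSF3 replicate B, 0 without GFP replicate A and 4 without GFP replicate B.

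Of the 16 genes of endoplasmic reticulum degradation and lipid droplets around AUP1, Ube2g2, the partner enzyme of AUP1, rose in whole cells after SRSF3 knockdown (2182 and 1674 against 1102 and 1364 scaled reads, log2 change 0.63 ± 0.14, adjusted p = 0.019 by limma). Nploc4, a cofactor of the p97 segregase, rose by 0.52 ± 0.12 (adjusted p = 0.018 by limma) and Derl1, a channel component, by 0.40 ± 0.12 (adjusted p = 0.049 by limma). In the cytoplasm 0 of the 16 passed. The median log2 change of this list was 0.27 in whole cells and 0.20 in the cytoplasm.

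Of the 15 peroxin genes, Pex6, whose product is anchored by PEX26, rose in whole cells after SRSF3 knockdown (1139.7 and 911 against 643 and 627, log2 change 0.67 ± 0.15, adjusted p = 0.016 by limma), as did Pex10 (0.48 ± 0.11, adjusted p = 0.016 by limma). Pex7, the receptor for a class of peroxisomal enzymes, fell (-0.47 ± 0.12, adjusted p = 0.033 by limma). After SRSF1 knockdown Pex6 fell in whole cells (307 and 409 against 643 and 627, log2 change -0.84 ± 0.15, adjusted p = 0.026 by limma), where 0.825% of all genes passed. Pex6 was thus on opposite sides of the control in these 2 knockdowns, and the difference between them was not tested.

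Of the 18 genes of MAP kinase phosphatases and ERK feedback, Dusp5 rose in whole cells after SRSF3 knockdown (0.81 ± 0.20, adjusted p = 0.026 by limma) and Dusp7 fell (-0.58 ± 0.12, adjusted p = 0.013 by limma). Parvb, a parvin of the adhesion complex that holds RSU1, fell (-0.56 ± 0.11, adjusted p = 0.012 by limma), alone of 11 genes. Pitpnm1, a relative of Pitpnc1, fell (-0.72 ± 0.16, adjusted p = 0.017 by limma), and so did Loxl3, listed with the copper amine oxidases (-0.79 ± 0.13, adjusted p = 0.0066 by limma).

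None of the 16 other mitochondrial aminoacyl-tRNA synthetases passed after SRSF3 knockdown by limma in either fraction, and none of the 7 tested sugar transporters did. The Pex6 call after SRSF1 knockdown was among 2 calls in 570 tests of listed partners in the 6 other knockdowns in whole cells, and the cytoplasm had 0 of 576. With the letter as a block these counts were 14 and 12. Without either GFP library, or without the A library of the knockdown, the 2 whole-cell calls were lost.

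Of the 22 NXF1 export factors and adaptors, the targeted Srsf genes included, Poldip3 rose in whole cells after SRSF3 knockdown (5254 and 3746 against 3269 and 3051, log2 change 0.48 ± 0.13, adjusted p = 0.040 by limma). It encodes an adaptor of the TREX complex, which loads NXF1. The other 21 did not pass in whole cells (11.5% of all genes did), and 0 of 22 passed in the cytoplasm (0.558% of all genes). Under the replicate block 9 of 22 passed in whole cells, 8 higher and the targeted Srsf3 lower, where 33.2% of all genes passed. Among the 9 were Nxf1 itself (0.29 ± 0.07, adjusted p = 0.0069 by limma) and Rbm15 (0.93 ± 0.12, adjusted p = 9.7e-05 by limma). In the cytoplasm 3 passed with the block (14% of all genes did), Rbm15 and Srsf6 higher and Srsf3 lower. Nothing further is read from these counts. For the 9 nuclear RNAs the 8 tested gave 0 calls in either fraction without the block. With it, Meg3 and Firre passed as higher in the cytoplasm (14% of all genes passed) and Meg3, Neat1 and Miat as lower in whole cells (33.2%). Meg3 also passed with the block as higher in the relative change (1.16 ± 0.26, adjusted p = 0.030 by limma). Lin28a was the 1 pluripotency marker of 6 that passed, lower in whole cells (-0.39 ± 0.10, adjusted p = 0.029 by limma).

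By likeness over the same 16 group means, Aup1 was followed by Glis1 (r = 0.97) and Qtrt1 (r = 0.97), Slc2a6 by Pck2 (0.96) and Mpi (0.94), and Pitpnc1 by Otud1 (0.95) and Fbxl5 (0.95). For Pex26 they were Dnaaf3 (0.93) and She (0.92), for Rsu1 Ifitm1 (0.92) and Pdhx (0.90), for Dusp6 Ilf2 (0.90) and Ankrd46 (0.90), and for Aoc2 Mrpl46 (0.89) and Cdkn2d (0.89). These are the highest of 17035 genes each, the means share libraries and depth, and nothing further is read from them.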

How the data were processed

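Poly(A)+ RNA of P19 cells was sequenced after knockdown of 7 SR proteins or GFP. The submitters' processing notes name the builds mm9 and mm10 and, with no role or order, Cufflinks 2.1.1, Bowtie2 2.1.0, TopHat2 (versions 2.0.10 and 2.0.9), CASAVA 1.8.2 and the trimmer cutadapt. The authors deposited, per library, gene and exon-bin values that are reads scaled to a common depth (a signal, no raw count), and, pooled per condition, FPKM by gene and transcript; their own fold changes and p-values were not used, nor were the planned isoform shares, whose columns name no group. No column belonged to another sample (0). The transcript tables of SRSF4 to SRSF7 have no header, and their columns were checked against the gene FPKM. Whole read counts were recovered from the deposited exon bins (estimated counts, summed per gene, so a read spanning bins counts in each) for edgeR 4.0.16 and DESeq2 1.42.0, because the gene tables did not give whole reads, which departs from the plan. The values of all bins came out whole to within 3.84e-09 reads. Over all genes after SRSF3 knockdown, limma called 98 and 2133 genes (cytoplasm and whole cells), edgeR 117 and 2015, and DESeq2 663 and 2737.

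Gene values were scaled by TMM, filtered with filterByExpr, and fitted as log2(value + 1) with limma 3.58.1 in R 4.3.3 over the 16 libraries of a fraction, with Benjamini-Hochberg adjustment over all genes. Fold changes on this scale understate low genes. The relative change is the interaction over all 32 libraries, each table scaled within itself. Bins whose mean reached 5 went through diffSplice in the libraries of each comparison. FPKM changes used a pseudocount of 0.1. Copies were searched with blastn 2.17.0+. Scripts were tested on simulated data. Genes listed at a failed estimate were left out (2 in the cytoplasm, 4 in whole cells, 0 members). Libraries of the same letter deviated together (correlation of deviations 0.45 to 0.83 in the cytoplasm and 0.24 to 0.81 in whole cells). This is a hint from the data that the letter pairs them. The letter was used only in the values within a letter and in the fits with the letter as a block. The main fits, with their SE and p-values, leave it out. A member's change is given singly where its log2 size is at least 0.5 or an adjusted p is under 0.05. Members and lists were chosen with earlier results of these data known. A result on 1 listed partner gene is not reported here.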

Additional observations from a re-analysis of the deposited data

Results flagged for a closer look

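Lars2 after SRSF3 knockdown was marked because its 2 fractions went opposite ways in every library. Both cytoplasmic knockdown libraries lay below both GFP libraries (log2 change -0.32) and both whole-cell libraries above them (0.45), a relative change of -0.77. The difference between the fractions was not tested, since this contrast chose the gene. The cytoplasmic A library was at 10768 scaled reads against 10779.7 in GFP A. Over the exons other than the last, the log2 changes were -0.10 and -0.05. Groups of 2 libraries are too small for an outlier test.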

How the results depend on the processing

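Counts of member calls in the 6 other knockdowns were 0 of 48 in the cytoplasm, in whole cells and for the relative change under every alternative run, except for 1 in the cytoplasm with the replicate block (Pex26 after SRSF1 knockdown, adjusted p = 0.041) and 1 in whole cells by DESeq2 on the exon-bin reads (Rsu1 after SRSF7 knockdown). The block changed no other member call among genes. Member exon bins gave 0 calls in the main fit and for bins with a mean of 20 or more, 3 with the replicate block, and 0 to 7 when a library was left out. The 7 came without the B library of the knockdown: the last exon of Lars2 after SRSF2 (-2.67) and SRSF5 (1.65) knockdown in the cytoplasm and after SRSF1 (1.45) and SRSF7 (-0.86) knockdown in whole cells, with 2 bins of Rsu1 and 1 of Aup1 in the SRSF2 cytoplasm. Without the A library there were 3, each the last exon of Lars2. These fits set 1 library against 2, the lone library being assumed to vary like the controls, and which Lars2 calls appear depends on which library is dropped. Among the listed partners after SRSF3 knockdown, the counts were 0 in the cytoplasm (12 with the block, 1 by edgeR, 4 by DESeq2, 0 to 1 without a library) and 11 in whole cells (28 with the block, 0 when the fit held no other groups, 16 by DESeq2, 0 to 18 without a library). In the other knockdowns they were 0 in the cytoplasm (12 with the block, 6 by DESeq2, 0 to 1 without a library) and 2 in whole cells (14 with the block, 9 by DESeq2, 1 with no filter, 0 when the fit held no other groups, 0 to 2 without a library). The median transcript change after SRSF3 knockdown was -0.33 in the cytoplasm with both pseudocounts and -0.64 for transcripts with an FPKM of at least 1, and in whole cells -0.47, -0.30 with a pseudocount of 1 and -0.43 for those transcripts. Lars2 changed sign without being called: in the cytoplasm after SRSF2 knockdown it was 0.31 by edgeR, 0.30 by DESeq2 and -2.23 to 1.20 without a library, and its relative change 0.26 by both and -2.65 to 1.64. Its other ranges without a library were -1.06 to 0.0749 (SRSF6) and -0.13 to 2.04 (SRSF7) in the cytoplasm, -0.39 to 1.69 in whole cells (SRSF1), and -1.70 to 0.0493 (SRSF1) and -0.72 to 2.04 (SRSF5) for the relative change. The cause was not tested. Counting bins outside the last exon, or leaving out Lars2, was added after seeing the data. With 2 libraries a group and few reads for Slc2a6 and Aoc2, changes near their SE cannot be seen at this depth.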
